A study of Mus musculus with 2 samples.

Results

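Genes of the intestinal crypt are described in single cells of the mouse colon: Lgr5, Ascl2, Axin2, Sox9, Smoc2, Lrig1, Cdca7, Myc and Ephb2. They were chosen by symbol as markers of crypt stem cells and targets of Wnt signalling, and all 9 were found among the 31053 genes of both libraries. The study compared colon cells of wild-type C57BL/6 mice given 10 mg/kg of THC (tetrahydrocannabinol, a cannabinoid of the cannabis plant) with colon cells of wild-type C57BL/6 mice given the vehicle. Each group is 1 droplet library. Colons were treated with EDTA, which loosens the epithelium, followed by Dispase, DNAse and collagenase D, and lamina propria cells were enriched on Percoll. Libraries were made with the 10x Genomics 5' expression kit. The sources used here do not state how many mice stand behind a library, their age or sex, what the vehicle was or when THC was given.

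The colon epithelium is renewed from stem cells at the base of the crypts. Wnt ligands made mostly by stromal cells below the crypt bind Frizzled and Lrp receptors and keep β-catenin in the nucleus, where it acts with TCF factors on genes such as Axin2, Lgr5, Ascl2, Sox9, Myc and Ephb2. As cells move up the crypt they leave this signal, stop dividing and become colonocytes or goblet cells.

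A barcode was kept as a cell with at least 1000 UMIs (unique molecular identifiers, tags that count RNA molecules), at least 200 genes and under 15% mitochondrial UMIs. This left 436 THC cells and 703 vehicle cells, with medians of 9072.5 and 7539 UMIs, and no barcode was shared. The deposits were unequal, since the THC matrix listed 737280 barcodes and the vehicle matrix 973, all with 502 UMIs or more. With 1 library per group no spread between replicates exists, no test was made, and every interval below is a 95% interval for counting error only. A level, in CPM, is the UMIs of a gene per 1e6 UMIs of all genes in the cells of a class together, so a higher share of cells with the gene and more RNA per cell cannot be told apart in it.

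Cells were clustered without the 9 members, and clusters were given classes from marker genes that did not include them. Epithelial-like cells numbered 161 from THC and 245 from vehicle colons, stromal-like cells 181 and 279, and immune-like cells 94 and 174. The 10 epithelial markers summed to 18233.8 CPM in THC and 16902.3 CPM in vehicle epithelial-like cells, against 160.6 and 71.1 CPM in stromal-like cells. The larger of the crypt-like clusters described below passed on 4 of 13 crypt markers. The 11 fibroblast markers summed to 2.93 and 5.34 CPM in THC and vehicle epithelial-like cells, with 8 of 11 and 2 of 11 at 0. The 8 smooth muscle markers differed more, at 427 CPM in THC and 23.6 CPM in vehicle epithelial-like cells. A single THC cell, marked as a doublet, held 1121 of the 1168 THC UMIs of these markers and 1 UMI of a member, Myc.

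The promoters of Ascl2 and Ephb2 are printed because these members had 95.2% or more of their UMIs in epithelial-like cells in each library. The sequences are the 250 bases before the RefSeq start in build GRCm38.p6, on the gene's strand, 5′ to 3′, and capitals mark CCAAT or its reverse complement ATTGG.
Ascl2, chr7:142969265-142969514, minus strand: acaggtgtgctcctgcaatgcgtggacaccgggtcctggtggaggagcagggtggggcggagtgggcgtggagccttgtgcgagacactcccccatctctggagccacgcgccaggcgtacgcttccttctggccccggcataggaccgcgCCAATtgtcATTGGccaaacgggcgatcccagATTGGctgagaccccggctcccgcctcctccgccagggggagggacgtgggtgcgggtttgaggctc
Ephb2, chr4:136836013-136836262, minus strand: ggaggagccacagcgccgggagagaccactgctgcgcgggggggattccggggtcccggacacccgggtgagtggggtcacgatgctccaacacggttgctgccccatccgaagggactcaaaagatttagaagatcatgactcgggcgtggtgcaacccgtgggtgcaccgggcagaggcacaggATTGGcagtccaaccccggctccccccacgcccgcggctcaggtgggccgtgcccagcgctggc

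RefSeq windows were matched for 5 of the 9 members, which were Ascl2, Axin2, Lrig1, Cdca7 and Ephb2. None of the 5 held CTTTGAT or CTTTGAA on either strand, which are forms of the TCF core motif and occur in 3.21% and 4.46% of all 32851 windows of this length. CCAAT, searched on both strands, stood in 3 of the 5 windows and in 33.8% of all windows. The Ascl2 window held it 3 times and the Ephb2 window once. A missing motif says only that these letters are not within this window.

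By share of UMIs, Ascl2 and Ephb2 lay almost wholly in epithelial-like cells, and Lgr5, Sox9 and Cdca7 lay mostly there. Axin2, Lrig1 and Smoc2 were spread over epithelium and stroma, and Myc lay mostly outside the epithelium. Of the UMIs of all genes, epithelial-like cells held 2732722 of 4956950 in THC and 3181103 of 6533055 in vehicle cells. Shares of UMIs therefore also follow the size of a class. Ascl2 had 51 UMIs in THC cells and 70 UMIs in vehicle cells, and all of them were in epithelial-like cells. Of the Myc UMIs, 22.8% of 456 in THC cells and 21.3% of 778 in vehicle cells were epithelial-like. By shares of UMIs, the order of the compartments was the same in both libraries for Sox9, Cdca7, Axin2, Smoc2 and Lrig1 as well. By level, Lrig1 was higher in the stroma of the THC library, with an epithelial over stromal log2 ratio of −0.52 (−0.84 to −0.20). In the vehicle library this ratio was 0.09 (−0.19 to 0.38), and the difference between libraries was not tested.

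**Figure D1:**
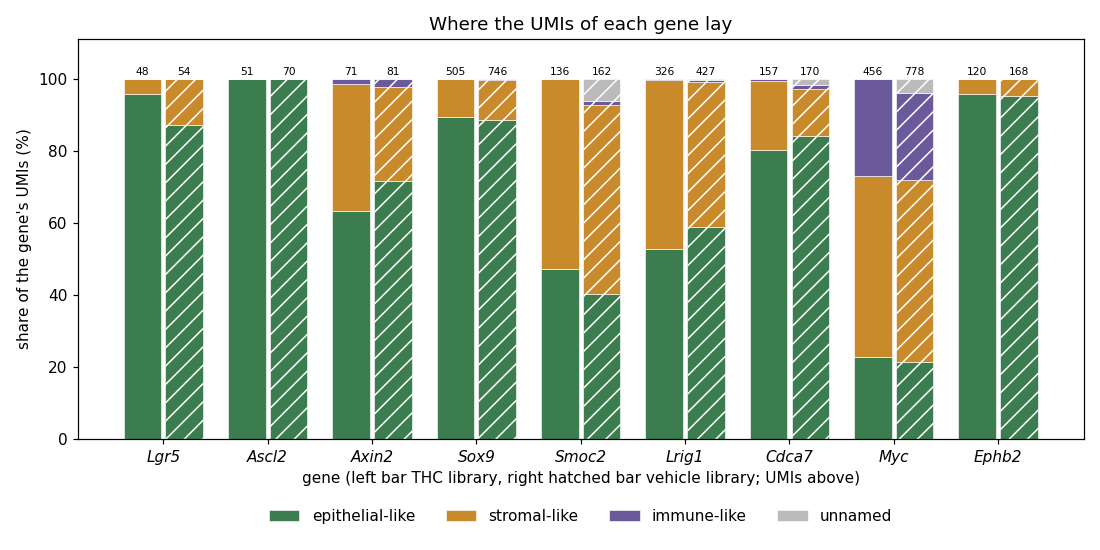
Share of each member's UMIs (%, y axis) that lay in epithelial-like, stromal-like, immune-like and unnamed cells, with the THC bar left of the hatched vehicle bar for each gene and the number of UMIs above it. Ascl2 is wholly epithelial-like in both libraries, and Myc has 22.8% (THC) and 21.3% (vehicle) of its UMIs in epithelial-like cells.

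Lgr5 (ENSMUSG00000020140) encodes the R-spondin receptor that marks dividing crypt base stem cells. In epithelial-like cells it had 46 UMIs in 24 THC cells and 47 UMIs in 24 vehicle cells, which gives 16.8 CPM (12.3 to 22.5) and 14.8 CPM (10.9 to 19.6). Cells with a UMI were 14.9% of THC and 9.80% of vehicle epithelial-like cells, and none was found among 94 THC and 174 vehicle immune-like cells, which, at 3 counts of the total, allows up to 3.19% and 1.72% of cells with a UMI and does not limit the share of cells that express the gene. Immune-like cells were shallower, with medians of 3676.5 and 3640.5 UMIs against 17314 and 12873 in epithelial-like cells. After thinning each epithelial-like cell to 1000 UMIs, 3 THC and 3 vehicle cells kept an Lgr5 UMI.

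Among epithelial-like clusters of 10 or more cells per library, Lgr5 was highest in the larger of the crypt-like ones. Of 21 clusters, 7 were epithelial-like, and the crypt-like cells among them formed a larger cluster and a dividing Top2a-high cluster. Where a class has several clusters, each is called by 1 of its 10 highest genes by fold, chosen to tell them apart. Lgr5 was at 34.1 CPM (16.4 to 62.8) in 21 THC cells and 48.9 CPM (33.2 to 69.4) in 63 vehicle cells of the larger crypt-like cluster. In the Top2a-high cluster it was at 29.2 CPM in THC cells, from 12 UMIs, and at 13.6 CPM in vehicle cells, where all 4 UMIs came from 1 cell. The THC level there lay within the THC interval of the larger cluster. Of the 24 epithelial-like cells with Lgr5 in each library, 10 THC and 16 vehicle cells lay in the crypt-like clusters. Colonocyte-like cells had 0 CPM in THC and 1.69 CPM in vehicle cells. Goblet-like clusters lay between, and their intervals overlapped that of the larger crypt-like cluster in the THC library and not in the vehicle library. The goblet-like cluster high in Retnlb had 20.4 CPM in THC cells and 6.40 CPM in vehicle cells, and the one high in Plet1 had 17.7 and 5.44 CPM. The remaining epithelial Lgr5 UMIs of both libraries lay in a Tgm3-high cluster without a further name or in an enteroendocrine-like cluster. In the stroma Lgr5 was seen in 1 cell of each library: a THC cell with 2 UMIs and a vehicle cell with 7 UMIs in a fibroblast-like cluster high in Ereg.

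**Figure D2:**
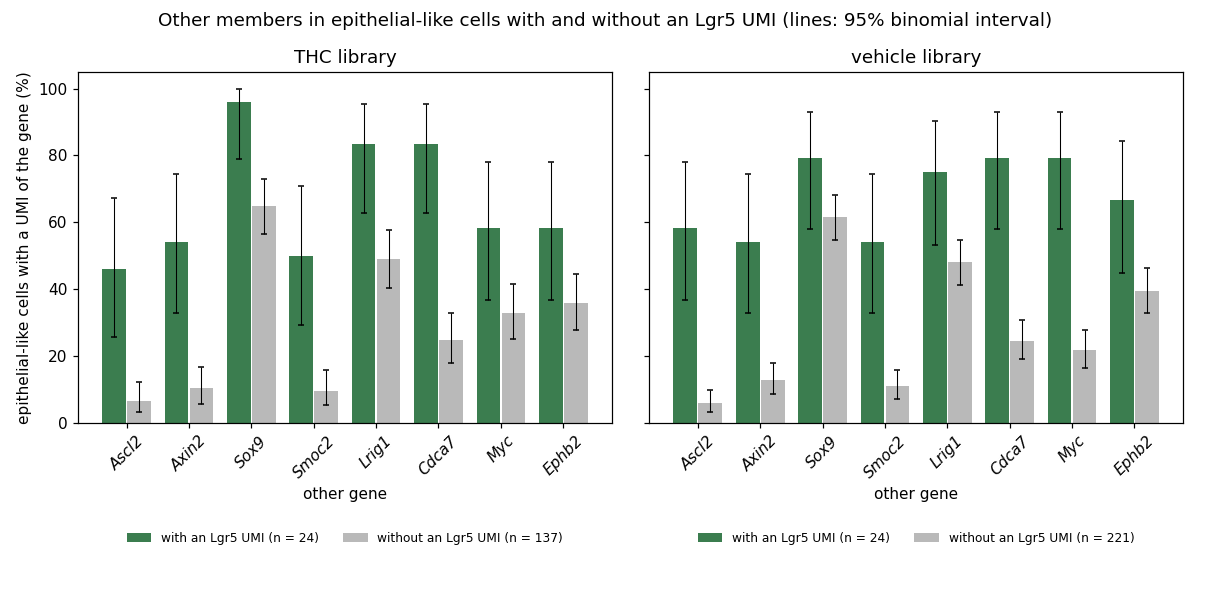
Percent of epithelial-like cells with a UMI of each other member (y axis) among cells with (green bars) and without (grey bars) an Lgr5 UMI, in a THC panel left of a vehicle panel, with exact binomial 95% intervals. Ascl2 was found in 45.8% (THC) and 58.3% (vehicle) of cells with Lgr5, against 6.57% and 5.88% of cells without it.

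Cells with an Lgr5 UMI had higher shares of cells with each of the other members. Ascl2 was present in 11 of 24 THC and 14 of 24 vehicle cells with Lgr5, against 9 of 137 THC and 13 of 221 vehicle cells without it. Axin2 was present in 54.2% of THC and 54.2% of vehicle cells with Lgr5, against 10.2% and 12.7% of cells without it. Smoc2 showed the same order, at 50% and 54.2% with Lgr5 and 9.49% and 10.9% without it. Cells with Lgr5 were deeper, with medians of 22087.5 UMIs in the THC and 19213 UMIs in the vehicle library, against 16245 and 12173 in cells without it, and the part of depth in these shares was not tested. Within the crypt-like clusters alone, Ascl2 was present in 6 of 10 THC and 11 of 16 vehicle cells with Lgr5, against 7 of 31 and 12 of 72 cells without it. The depth gap was wider there, at 24584 and 17639.5 UMIs with Lgr5 against 14044 and 3192.5 without it. An epithelial-like cell held a median of 2 of the 9 members in both libraries, and 35 of 161 THC and 45 of 245 vehicle cells held 5 or more.

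Ascl2 (ENSMUSG00000009248), a basic helix-loop-helix factor that maintains the stem cell state, was the most restricted member. It was at 18.7 CPM (13.9 to 24.5) in 20 THC cells with a UMI and 22.0 CPM in 27 vehicle cells with a UMI, over all epithelial-like cells. No UMI was found in 181 THC and 279 vehicle stromal-like cells, which by the same count of 3 allows up to 1.66% and 1.08% of cells with a UMI. In the larger crypt-like cluster 9 of 21 THC and 19 of 63 vehicle cells had a UMI, at 81.9 CPM (52.5 to 122) and 78.9 CPM (58.5 to 104). The Top2a-high cluster was lower, at 46.2 CPM in THC cells and 23.9 CPM in vehicle cells, with overlapping intervals between clusters in the THC library. No colonocyte-like cell held an Ascl2 UMI. Ascl2 was not used for clustering but led the larger crypt-like cluster by fold.

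Axin2 (ENSMUSG00000000142), a scaffold of the β-catenin destruction complex and a feedback target of Wnt signalling, was seen in epithelium and stroma. It was at 16.5 CPM in THC and 18.2 CPM in vehicle epithelial-like cells, and at 14.8 and 9.04 CPM in stromal-like cells. Both crypt-like clusters had similar levels, at 30.7 CPM in THC and 28.4 CPM in vehicle cells of the larger one, and 36.5 and 30.7 CPM in the Top2a-high one. In the stroma, the smooth muscle-like cluster high in Des had 21.0 CPM in THC cells, from 11 UMIs, and 10.4 CPM in vehicle cells, from 6 UMIs. These intervals overlapped. The 5 THC and 2 vehicle mesothelial-like cells held 5 UMIs and 1 UMI of Axin2.

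Sox9 (ENSMUSG00000000567), a transcription factor of crypt progenitors and of secretory cells, was found in 112 of 161 THC and 155 of 245 vehicle epithelial-like cells. Its level was 165 CPM (150 to 181) in THC and 208 CPM in vehicle epithelial-like cells. The Plet1-high goblet-like cluster had 288 CPM in THC cells and 274 CPM in vehicle cells, and the larger crypt-like cluster 194 and 216 CPM. The Tgm3-high cluster had 160 CPM in THC cells and 291 CPM in vehicle cells. Colonocyte-like cells were lowest among epithelial-like clusters of 10 or more cells per library, at 72.1 and 39.0 CPM. Of the stromal UMIs, 47 of 54 in the THC and 76 of 81 in the vehicle library lay in fibroblast-like cells of a cluster high in Tcf21. There Sox9 was found in 23 of 49 THC and 30 of 80 vehicle cells, at 125 and 131 CPM. The epithelial markers were summed over the whole stroma and not in this cluster, and the source of this Sox9 RNA was not tested. Immune-like cells held 0 Sox9 UMIs among THC cells and 4 among vehicle cells.

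Myc (ENSMUSG00000022346), a growth-promoting transcription factor, was at 38.1 CPM in THC and 52.2 CPM in vehicle epithelial-like cells, 135 and 169 CPM in stromal-like cells, and 232 and 194 CPM in immune-like cells. B-like cells had 800 CPM (649 to 976) in the THC and 623 CPM (528 to 730) in the vehicle library, with a UMI in 21 of 37 and 36 of 69 cells. Fibroblast-like cells of a cluster high in Has1 came next among clusters of at least 10 cells per library, at 383 and 415 CPM. Within the epithelium the larger crypt-like cluster was at 78.5 CPM in THC and 126 CPM in vehicle cells, and colonocyte-like cells at 15.3 and 1.69 CPM. In both libraries Myc was thus higher in B-like and Has1-high fibroblast-like cells than in any epithelial-like cluster.

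Ephb2 (ENSMUSG00000028664), a receptor tyrosine kinase that positions cells along the crypt by sensing ephrin-B ligands, was at 42.1 CPM in THC and 50.3 CPM in vehicle epithelial-like cells. It had 5 UMIs in THC and 8 UMIs in vehicle stromal-like cells and none in immune-like cells. Unlike Ascl2, it was also seen in colonocyte-like cells. The Retnlb-high goblet-like cluster had 75.7 CPM in THC cells and 61.9 CPM in vehicle cells. In the same order, the Top2a-high crypt-like cluster had 53.5 and 61.4 CPM, and colonocyte-like cells 26.1 and 27.1 CPM. The larger crypt-like cluster had 37.5 CPM in THC cells, from 11 UMIs, and 59.9 CPM in vehicle cells. Its level was below those of both goblet-like clusters in each library. Crypt-like and goblet-like intervals overlapped in both libraries.

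Lrig1 (ENSMUSG00000030029), a transmembrane inhibitor of ErbB receptors that marks intestinal stem cells, was at 62.9 CPM in THC and 78.9 CPM in vehicle epithelial-like cells. In stromal-like cells it was at 90.4 CPM (76.6 to 106) in THC and 74.1 CPM (63.4 to 86.0) in vehicle cells, with a UMI in 39 of 181 and 56 of 279 cells. Of these stromal UMIs, 108 of 153 in THC and 97 of 172 in vehicle cells lay in a smooth muscle-like cluster of 14 and 16 cells. The larger crypt-like cluster had 64.8 and 110 CPM, and the Top2a-high one 99.7 and 95.5 CPM. The Des-high smooth muscle-like cluster was at 62.9 and 93.7 CPM.

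Smoc2 (ENSMUSG00000023886), a secreted matrix protein and mouse stem cell marker, was highest in the stroma. The Has1-high fibroblast-like cluster had 246 CPM (184 to 322) in THC cells and 152 CPM (117 to 194) in vehicle cells, with a UMI in 11 of 32 and 16 of 56 cells and up to 17 UMIs in a THC cell. In epithelial-like cells it was at 23.4 CPM in the THC and 20.4 CPM in the vehicle library. No colonocyte-like cell held a Smoc2 UMI, while the larger crypt-like cluster was at 34.1 CPM in THC and 56.8 CPM in vehicle cells. The Top2a-high crypt-like cluster was at 43.8 and 10.2 CPM and the Tgm3-high cluster at 38.1 and 22.3 CPM. Smoc2 was thus not confined to crypt-like cells within the epithelium. Cdca7 (ENSMUSG00000055612), a Myc-responsive gene linked to cell division, was at 46.1 CPM in THC and 44.95 CPM in vehicle epithelial-like cells and at 17.7 and 9.47 CPM in stromal-like cells. Its highest cluster was the larger crypt-like one, at 119 CPM in THC and 88.3 CPM in vehicle cells. The Top2a-high crypt-like cluster was at 65.6 and 58.0 CPM.

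**Figure D3:**
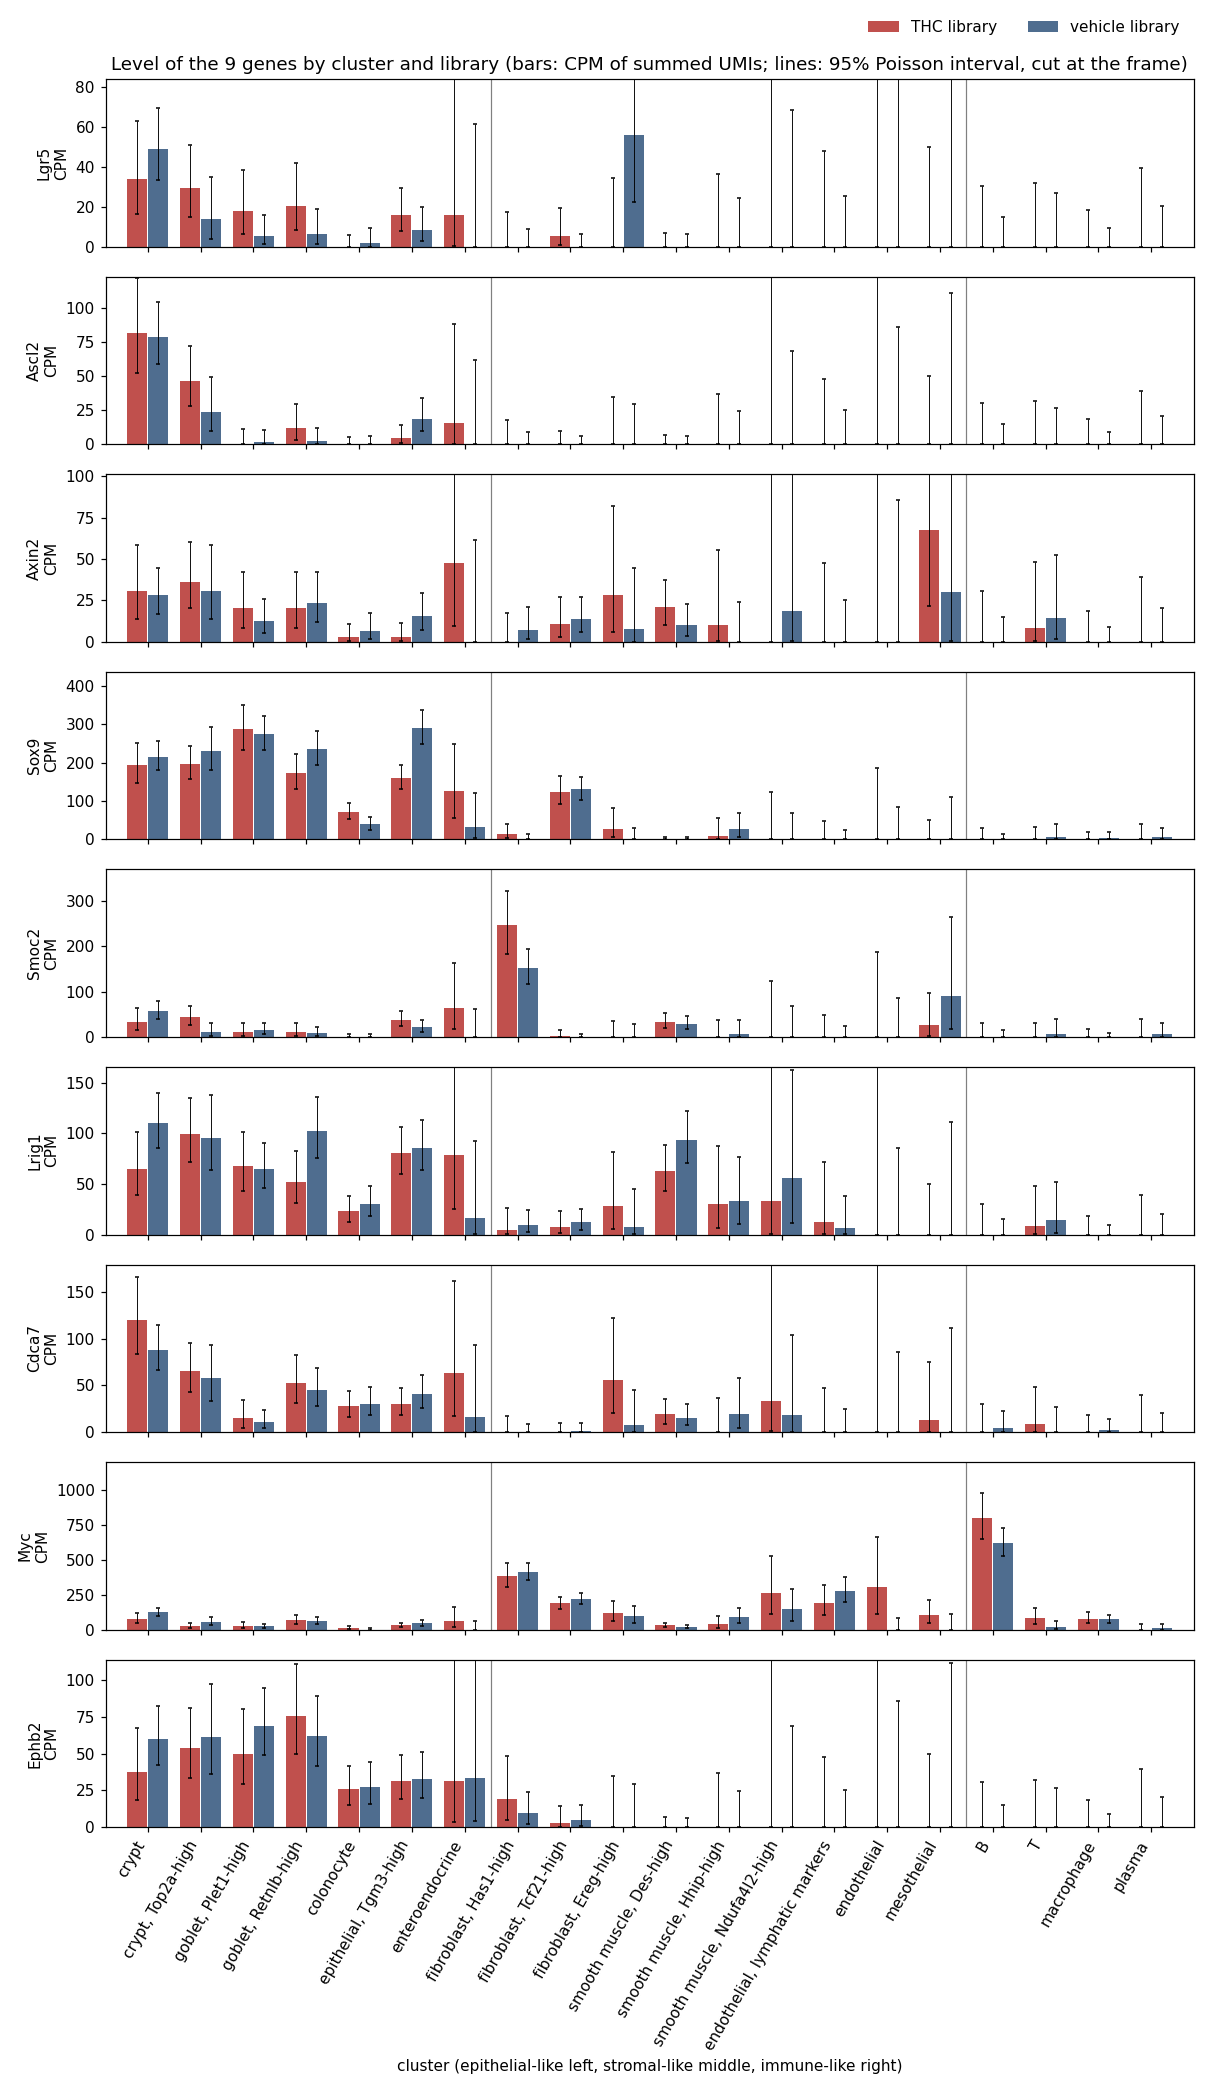
Level of each member (CPM, y axis, one panel per gene) in 20 of the 21 clusters (x axis, epithelial-like left, then stromal-like and immune-like), with the THC bar left of the vehicle bar and exact Poisson 95% intervals as lines. Ascl2 is highest in the larger crypt-like cluster (81.9 and 78.9 CPM) and Myc in B-like cells (800 and 623 CPM).

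Set against the stroma, 5 members in the THC library and 6 in the vehicle library were higher in epithelial-like cells by a log2 ratio of at least 1 with at least 20 UMIs. Of all genes with at least 20 UMIs, 21.5% passed this in the THC library and 20.5% in the vehicle library. Ephb2 had a log2 ratio of 3.83 (2.57 to 5.48) in THC and 3.87 (2.85 to 5.10) in vehicle cells, and Sox9 one of 2.37 and 2.57. Against a floor of 3 UMIs set for the stromal class, Ascl2 was 10.5-fold higher in THC and 17.03-fold higher in vehicle epithelial-like cells. The lower ends of its intervals were log2 ratios of 3.05 in THC and 3.75 in vehicle cells. Lgr5 was at 3.83 and 2.29 and Cdca7 at 1.38 and 2.25. Axin2 passed in the vehicle library alone, at 1.01 (0.27 to 1.81), against 0.16 in the THC library, and the difference between libraries was not tested. Myc was the member lower in epithelium past the fold, at −1.83 and −1.70, where 24.5% and 25.5% of genes were that low.

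Between treatments, no member differed past this fold in epithelial-like cells. Of 10445 genes measured there, 1.6% were higher and 1.73% lower in the THC library by a log2 ratio of at least 1. The members' median log2 ratio of THC over vehicle was −0.24, with 3 higher and 6 lower, beside 0.01 for all genes. Myc was at −0.46 (−0.82 to −0.09), Sox9 at −0.33 (−0.51 to −0.16) and Lrig1 at −0.33 (−0.61 to −0.04), and these 3 intervals left out 0 on the lower side in the THC library. Intervals of the other 6 members held 0. Lgr5 was at 0.19 (−0.43 to 0.81), Smoc2 at 0.20 (−0.32 to 0.72) and Cdca7 at 0.04 (−0.32 to 0.39). Ascl2 was at −0.24 (−0.79 to 0.30), Axin2 at −0.15 (−0.74 to 0.44) and Ephb2 at −0.26 (−0.62 to 0.10). A difference within these intervals was not detectable at this depth.

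**Figure D4:**
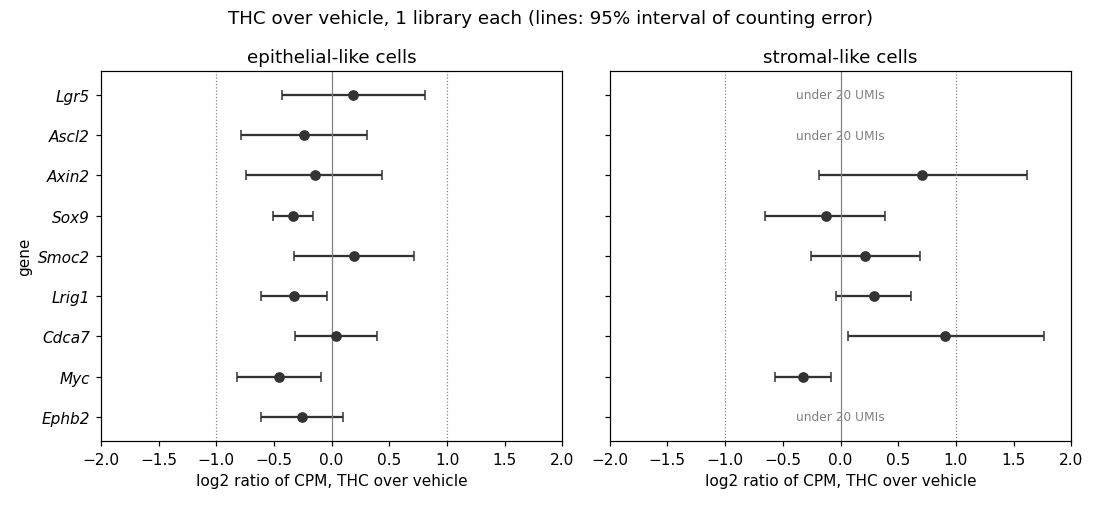
Log2 ratio of summed CPM, THC over vehicle, for each member in epithelial-like cells (left) and, where at least 20 UMIs were counted, in stromal-like cells (right), with exact conditional Poisson 95% intervals and dotted lines at −1 and 1. No point lies past a dotted line, and the highest is Cdca7 in stromal-like cells at 0.90.

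Cells of the larger crypt-like cluster were 13.04% of THC and 25.7% of vehicle epithelial-like cells, and the colonocyte-like and Tgm3-high clusters together took more of the THC cells. The Tgm3-high cluster, which had no further name, held 23.6% of THC and 16.3% of vehicle epithelial-like cells. With clusters weighted alike in THC and vehicle cells, the members' median log2 ratio was −0.04, with Lgr5 at 0.46, Sox9 at −0.25, Lrig1 at −0.30 and Myc at −0.22. Depth also differed within crypt-like cells, with medians of 14434 THC and 9024 vehicle UMIs in the larger cluster and of 20495.5 and 2804 UMIs in the Top2a-high one. Thinned to 1000 UMIs, Sox9 was at a log2 ratio of −0.95 and Lrig1 at −0.92, the members still measured. At that depth, 9.94% of THC and 17.1% of vehicle epithelial-like cells kept a Sox9 UMI, against 69.6% and 63.3% unthinned, so the order of the shares turned with depth. The thinned order was that of the CPM.

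Within single clusters, the log2 ratio of Sox9 had both signs. In the Tgm3-high cluster it had 101 UMIs in THC and 170 UMIs in vehicle cells, a log2 ratio of −0.86 (−1.23 to −0.50). In colonocyte-like cells it had 47 and 23 UMIs, a log2 ratio of 0.89 (0.14 to 1.67). The difference between these clusters was not tested. Lrig1 was lower in THC cells of the larger crypt-like cluster, at 64.8 against 110 CPM. It had 19 UMIs in 21 THC cells and 70 UMIs in 63 vehicle cells there. Its log2 ratio was −0.77 (−1.58 to −0.02) in that cluster and −0.97 in the Retnlb-high goblet-like cluster. Smoc2 had 18 UMIs in THC and 3 UMIs in vehicle cells of the Top2a-high cluster. These 18 UMIs came from 4 cells. Most pairs of a member and a cluster had intervals that held 0, and the pairs named here are ones whose intervals did not.

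**Figure D5:**
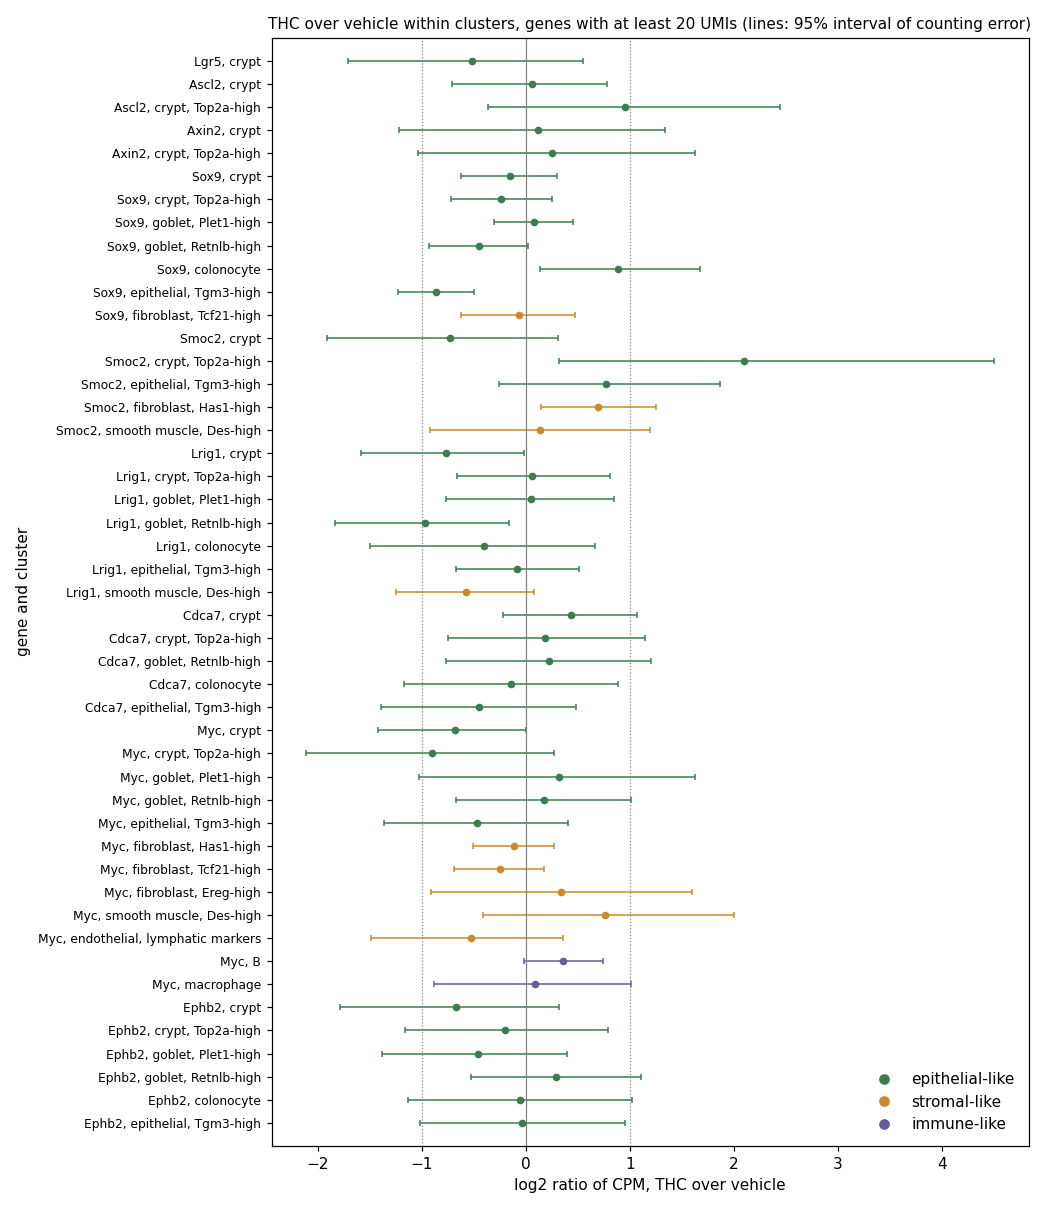
Log2 ratio of THC over vehicle (x axis) for pairs of a member and one of these 20 clusters with at least 20 UMIs over both libraries, with exact conditional Poisson 95% intervals and the 3 classes in colours. Sox9 lies at −0.86 in the Tgm3-high cluster and at 0.89 in colonocyte-like cells.

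In stromal-like cells 6 members had at least 20 UMIs, and none of them differed past the fold, which 1.24% of 10526 genes did upward and 2.21% downward. Their median log2 ratio was 0.25, beside −0.03 for all genes. Cdca7 was at 0.90 (0.06 to 1.77), from 30 THC and 22 vehicle UMIs, and Axin2 at 0.71 (−0.19 to 1.62). Myc was at −0.32 (−0.57 to −0.08) and was at −0.04 with clusters weighted alike. In the Has1-high fibroblast-like cells Smoc2 was at 0.70 (0.14 to 1.25), where 1 THC cell held 17 of 52 UMIs and 1 vehicle cell 11 of 64. Over the whole stroma Smoc2 was at 0.22 (−0.26 to 0.69), and at 0.03 without the richest cell of each library.

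Other parts of the pathway were read from lists of related genes, counted with the same minimum of 20 UMIs. The ratios of these lists pool all cells of a class and were not recomputed with clusters weighted alike. Among 18 Wnt receptor and transduction genes, 9 were higher and 9 lower in THC epithelial-like cells, none past the fold, with a median of 0.00. The outermost were Dvl3, a Dishevelled adaptor, at 0.60 (−0.02 to 1.23) and Fzd7, a Frizzled receptor, at −0.48. Of 13 further Wnt targets 5 could be measured, and all lay between −0.18 (Cd44, a hyaluronan receptor) and 0.19 (Ccnd1, cyclin D1). Rnf43, a ubiquitin ligase that removes Frizzled, had 20.9 CPM in THC and 21.7 CPM in vehicle epithelial-like cells. Of 12 other crypt and progenitor genes 9 were measured, 4 higher and 5 lower, with Prom1, a membrane protein of progenitors, lowest at −0.46 (−0.74 to −0.18) and Slc12a2, the basolateral chloride cotransporter, at −0.31 (−0.48 to −0.15). The 12 cell cycle genes were split 6 and 6, from Mcm5, a replication licensing factor, at −0.34 to Birc5, a mitotic protein, at 0.74 (0.38 to 1.11). Mki67, the proliferation marker, was at 0.56 (0.29 to 0.83). Within clusters, the summed level of these cell cycle genes had both orders. In the Top2a-high cluster it was lower in THC cells, at 1662.6 CPM against 2236.5 CPM in vehicle cells. It was also lower in THC cells of the larger crypt-like cluster, at 354.9 against 411.6 CPM, and of the Plet1-high goblet-like cluster. In the remaining epithelial-like clusters it was higher in THC cells, as in the Retnlb-high one, at 375.8 against 234.8 CPM.

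Genes tied to Myc and to mature colonocytes were counted in the same way. Of 10 nucleolar and growth genes linked to Myc, 7 were higher and 3 lower in THC epithelial-like cells, with a median of 0.20 and Myc itself at −0.46. Cad, an enzyme of pyrimidine synthesis, was at 0.82 and Srm, spermidine synthase, at −0.41. Among 8 mature colonocyte genes 5 were higher and 3 lower, and Aqp8, a water channel, was the gene past the fold, with 59.3 CPM in THC and 237 CPM in vehicle cells and a log2 ratio of −1.997 (−2.25 to −1.75). Of the 10 partners of the members 9 were measured, 3 higher and 6 lower, from Lrig2 at −0.45 to Erbb3, a receptor that Lrig1 restrains, at 0.06.

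Some Wnt targets lay mostly in the stroma. Nkd1, a Wnt feedback inhibitor, had 4 UMIs in THC and 1 UMI in vehicle epithelial-like cells, but 174 and 240 UMIs in stromal-like cells, at 103 CPM in each. It was at 166 CPM in THC and 174 CPM in vehicle cells of the Des-high smooth muscle-like cluster. Rnf43 was the reverse, with 57 THC and 69 vehicle epithelial UMIs and 1 stromal UMI in each library. Prox1, a transcription factor of lymphatic endothelium, had its highest level in the endothelial-like cluster with lymphatic markers, at 375 CPM in THC and 349 CPM in vehicle cells. Prox1 was 1 of the 11 endothelial markers used to name clusters, so its place there was partly set by the naming. Fzd5, a Frizzled receptor, was higher in epithelial-like than in stromal-like cells, at log2 ratios of 2.80 in THC and 2.85 in vehicle cells, as was the R-spondin receptor Lgr4, at 1.64 and 1.54. Fzd7 was lower there, at −1.90 and −1.11. Of the ligands and receptors around the members, the ephrin Efnb1 was at 2.70 and 2.49 and Erbb3 at 5.51 and 6.48, while Egfr was at −1.09 and −0.74.

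Over the 16 clusters of at least 20 cells, both libraries summed, some genes had profiles close to those of the members by Pearson r of log2(CPM + 10). These r are descriptions over clusters that share libraries and depth, among 11581 genes. Ephb2 was closest to Smpd3, Camsap3 and Grtp1, at r of 0.97, 0.97 and 0.96. Ascl2 was closest to Nox1, at 0.96, and to Nr2e3 and Kif12, both at 0.92. Lgr5 was closest to Insc, at 0.90, then Phactr4 and Eif2a, at 0.86 and 0.84. The closest gene was Slc44a3 for Sox9, at 0.90, Amot for Lrig1, at 0.89, and Tomm40 for Cdca7, at 0.91. Axin2, Myc and Smoc2 had looser neighbours, led by Pex26 at 0.86, Srfbp1 at 0.84 and Cdyl at 0.79. Between members, Sox9 and Ephb2 were at 0.88, Lgr5 and Ascl2 at 0.78 and Lgr5 and Axin2 at 0.77, whereas Lrig1 and Myc were at −0.64.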

How the data were processed

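The deposited matrices hold counts of UMIs per gene and barcode, made by the authors with Cell Ranger 3.0.2 per the file headers. Per the submitters' processing notes, bcl2fastq and Seurat were used too, with no version stated. For genome build and annotation nothing is given in the sources used here. Kept cells held 4956950 THC and 6533055 vehicle UMIs in all. The mitochondrial limit removed 30.6% of THC and 22.8% of vehicle barcodes that passed the other limits. The scrublet method in scanpy 1.11.5 marked 2 doublets in each library, and they were kept.

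Cells of both libraries were clustered together in scanpy 1.11.5 (python 3.11.15, leidenalg 0.10.2) on 2000 variable genes per library, leaving out the members and mitochondrial, ribosomal, immunoglobulin, T cell receptor and sex-linked genes, with 30 principal components, 15 neighbours and Leiden resolution 1. A cluster was named "X-like" by the class whose markers had the highest mean log2(CPM + 10) above the median over clusters, among classes with at least 3 markers found in at least 10% of its cells and at least 1 unit above that median. By this rule 1 smooth muscle-like and the mesothelial-like cluster also passed on 9 of 11 fibroblast markers. This scoring was written after the data were seen. A smooth muscle-like cluster of 14 THC and 16 vehicle cells, which held most stromal Lrig1 UMIs, counts in the stromal-like class but is not reported here on its own or plotted by cluster. Epithelial-like cells also needed 5 UMIs of the 10 epithelial markers. This left 5 vehicle cells of the Top2a-high cluster unnamed, which held 490 Cd74 UMIs against 53 in the 45 cells kept, and 32 Myc UMIs.

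All ratios are of summed CPM with exact conditional Poisson intervals, and no p-value was computed. The ratio and its interval were tried on simulated Poisson counts, the model that the interval assumes. Clustering, naming and thinning were not tried in this way. Intervals leave out variation between mice, preparations and cells. Named are all members, at most the 3 highest and 3 lowest log2 ratios of each list, and up to 3 most similar genes per member. Members, lists and markers were chosen with earlier results of these data known.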

Additional observations from a re-analysis of the deposited data

Results flagged for a closer look

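Sox9 differed between treatments in opposite directions in a pair of epithelial-like clusters. Its log2 ratio of THC over vehicle was −0.86 in the Tgm3-high cluster and 0.89 in colonocyte-like cells. The difference between the clusters was not tested, and each ratio compares 1 library with 1 library.

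Member UMIs also lay in barcodes that were not kept as cells. In the THC library 105817 barcodes with 1 to 100 UMIs held 162 member UMIs, or 198 CPM, of which 60 were Sox9, 26 Lrig1 and 3 Lgr5. The deposited vehicle barcodes do not reach that low. Barcodes with at least 1000 UMIs and 15% or more mitochondrial UMIs held 226 member UMIs in 218 THC barcodes and 266 in 223 vehicle barcodes, or 180 and 218 CPM. Sox9 led there in the THC library, with 100 UMIs.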

How the results depend on the processing

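Of 1111 recomputed values, 1088 stayed within the counting interval of the main value or, for counts of members, near the main count, and 23 moved. A reversal was looked for only in ratios past the fold in the main run, and 0 were found. No treatment ratio was past the fold there, so none could be labelled as reversed. Some treatment ratios did change sign. In epithelial-like cells Ascl2 kept its sign in 13 of 16 alternatives and Cdca7 in 14 of 16. In stromal-like cells Sox9 kept it in 12 of 16. No paired analysis was possible because each group has 1 library. No member passed the fold between treatments in epithelial-like cells under any of 17 alternatives, and Sox9 and Lrig1 kept a negative ratio in 17 of 17. The members' median there ran from −0.93 to 0.09. The lowest value, −0.93, came from thinning cells to 1000 UMIs, which left Sox9 and Lrig1 measured. The highest came from leaving out the colonocyte-like and Tgm3-high clusters, an alternative chosen after seeing the data. In stromal-like cells 1 member passed the fold with under 10% mitochondrial UMIs (Cdca7), 1 with a minimum of 1 UMI (Lgr5) and 1 after thinning (Lrig1). After thinning, 0 members of the THC and 2 of the vehicle library were higher in epithelial-like than stromal-like cells past the fold, with only Sox9, Lrig1 and Myc left to measure. The Myc log2 ratio in epithelial-like cells was −0.68 with the 5 unnamed vehicle cells kept, also chosen after seeing the data. Depth limits Lgr5, Ascl2, Axin2 and Smoc2, each with under 130 epithelial UMIs over both libraries.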
